A study of Homo sapiens with 25 samples.

Results

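NCI-H460 cells, an established line of human large cell carcinoma of the lung, were compared after transfection with ASO3 against candidate 240 or with a control ASO. The comparison takes in 4 of the 25 RNA-seq libraries of the series, 2 with ASO3 and 2 with the control ASO, which is every library the series holds for these groups. An antisense oligonucleotide (ASO) is a short modified strand that pairs with a chosen RNA and leads the nuclear enzyme RNase H to cut it. Per the labels, candidate 240 is also called CHiLL2, the control is Qiagen's neutral Control A, every cell culture received 25 nM of an ASO, and RNA was taken 24 h later. The same line holds 6 further libraries used below, 2 each with candidate 240 ASO1, candidate 42 ASO3 and candidate 42 ASO5. The second line of the series, A549 (lung adenocarcinoma), has 3 libraries each for candidate 240 ASO3 and its control. All groups received an oligonucleotide, so no untransfected cells stand beside them, and a line is 1 genetic background. Nothing in the labels tells if the 2 libraries of a group come from independent cultures. The p-values therefore measure only the spread between libraries of a group, which may be technical. That spread was estimated over all NCI-H460 groups together, so the libraries with other ASOs count in it too.

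As background, damage to DNA or disturbed ribosome production stabilises the transcription factor p53, which then switches on genes of cell cycle arrest, redox metabolism and cell death. Foreign nucleic acid can be sensed in the cytoplasm or in endosomes, and interferon signalling then acts through ISGF3, a transcription factor complex with IRF9 as its DNA-binding subunit, which binds a short promoter element, the interferon-stimulated response element (ISRE).

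The deposited values are TPM (transcripts per 1000000), a level per gene corrected for transcript length. They had been rescaled between libraries, and they keep no record of read number, so the depth behind a value is unknown and only the number of libraries limits the precision that can be stated. The 4 libraries held between 25717 and 27624 gene names above 0, and mitochondrial transcripts made up 7.93% to 8.74% of the signal. Keratins and vimentin marked the line: KRT8 stood at 1161 and 1109 TPM with ASO3 and at 922 and 908 TPM with control, and VIM at 1109 and 1083 against 927 and 859 TPM. The adhesion genes EPCAM and CDH1 lay under 1 TPM in all 4 libraries, as did NKX2-1, the lung lineage factor. In a principal component analysis of the 10 NCI-H460 libraries, the second component (11.1% of the variance) placed the ASO3 libraries at 26.3 and 27.8, against -12.0 to 3.47 for the other 8. The first (48.2%) placed candidate 42 ASO3 farthest out, at 72.2 and 38.7. The groups compared here stood apart on it too, with candidate 240 ASO3 at -3.69 and 3.06 and control at -26.3 and -28.5.

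With ASO3, 780 of 13774 tested genes (5.66%) differed from control at an adjusted p under 0.05 (limma on log2(TPM + 0.5), two-sided, Benjamini-Hochberg). Of these, 365 (2.65%) were higher and 415 (3.01%) lower, and the median difference over all tested genes was -0.03 on the log2 scale. The list counts below stand against these 2 shares. At an unadjusted p under 0.05 (limma), 1563 of the 13774 genes were higher and 1723 lower. Most changes were of moderate size, since 97 of the raised and 124 of the lowered genes passed a 2-fold difference, and 9 and 7 passed a 4-fold difference. Protein-coding genes made up 328 of the raised and 380 of the lowered genes, out of 11418 tested under their GENCODE release 29 type. When each library was rescaled to the same total, 198 genes were higher and 378 lower, so the higher share of the calls moved from 46.8% to 34.4% as the median of all genes moved to -0.12. With 2 libraries a group, the number of calls depended on each library. It was 399 without ASO3 replicate 1, 116 without ASO3 replicate 2, 119 without control replicate 1 and 74 without control replicate 2. All 780 genes kept their direction in each of these fits. That was fixed in advance, since the 2 groups overlapped in none of the called genes. In the authors' deposited table, 1308 genes had a q-value under 0.05, 746 higher and 562 lower, and 604 of the 775 called genes it lists were among them with the same sign. The smallest q-value in it was 0.0301. It holds the same 2 groups, so it is no independent check. With the control libraries scaled as in that table, 417 genes were higher and 399 lower here.

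The labels do not give the gene behind candidate 240. The RNA taken here for it, AC015712.6, is a processed transcript on the plus strand of hg38 chromosome 15, from 100849831 to 100876836. It was barely measured in NCI-H460, at 0.0169 and 0.0761 TPM with ASO3 and at 0.0492 and 0.107 TPM with control. The groups overlapped and all 4 values lay under the filter of 1 TPM, so no knockdown could be read from them. Among 10 genes of that neighbourhood, 4 were expressed enough to be tested and none passed. At an unadjusted p under 0.05 (limma), where 1563 of all 13774 genes were higher and 1723 lower, 1 of the 4 was lower. That gene was CHSY1, which makes the backbone of chondroitin sulfate, at 7.85 and 6.70 TPM with ASO3 and 11.8 and 11.7 TPM with control (log2 difference -0.66, SE 0.21, adjusted p = 0.0987). Fitted on the groups compared only, its adjusted p was 0.0492. ALDH1A3, the retinaldehyde dehydrogenase next to AC015712.6, stood at 0.876 and 1.56 TPM against 1.26 and 0.507 TPM, with overlapping groups. ASB7 stood at 4.19 and 2.78 against 4.40 and 3.26 TPM, and LINS1 at 5.63 and 6.50 against 6.84 and 7.53 TPM. With the same ASO in A549, 3 of 7 tested neighbourhood genes fell and none rose, where 7.82% of all genes fell there. They were CHSY1 (-0.59, limma adjusted p = 0.0233), LRRK1 (-0.75, 0.00506) and AC015712.1 (-1.77, 0.000311). Fitted on the A549 groups compared only, 1 fell.

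The clearest single fall was that of MCM6, on chromosome 2 from 135839626 to 135876443 on the minus strand. MCM6 is 1 subunit of the MCM2 to MCM7 ring, the helicase that opens DNA at replication origins. It stood at 13.8 and 10.3 TPM with ASO3 and at 55.8 and 56.5 TPM with control. The ASO3 libraries thus held 21.5% of the control level (log2 difference -2.19, SE 0.13, limma adjusted p = 0.000493), and the call held without any 1 of the 4 libraries. Its level was 54.3 and 52.8 TPM with ASO1 and 40.6 to 59.2 TPM in the 4 candidate 42 libraries, so no other NCI-H460 library came near the ASO3 level. None of the 5 partner subunits passed: MCM2 at -0.02 (SE 0.08), MCM3 at -0.11 (SE 0.09), MCM4 at 0.17 (SE 0.25), MCM5 at -0.04 (SE 0.10) and MCM7 at -0.04 (SE 0.09), all as log2 differences. Of these, MCM2 stood at 55 and 55.2 TPM with ASO3 and at 56.4 and 55.2 TPM with control.

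The other large falls were of genes with varied roles. PTPRG, a receptor tyrosine phosphatase, stood at 1.09 and 0.650 TPM with ASO3 and at 6.64 and 7.32 TPM with control (log2 difference -2.47, SE 0.25, adjusted p = 0.00227). CAP2, an actin-binding protein, stood at 2.02 and 1.15 against 9.03 and 9.28 TPM (-2.25, SE 0.23, adjusted p = 0.00234). NFIC, a nuclear factor I transcription factor, stood at 12 and 10.3 against 46.4 and 39.8 TPM (-1.90, SE 0.13, adjusted p = 0.000597). In each of these genes both ASO3 libraries lay far below both control libraries, and the calls held without any 1 library. NR3C1, the glucocorticoid receptor, fell to 2.28 and 1.69 TPM from 8.66 and 8.86 TPM, or 22.6% of control (-1.91, SE 0.22, adjusted p = 0.00375). IL18R1, a subunit of the interleukin-18 receptor, fell to 4.55 and 2.87 TPM from 16.1 and 17.2 TPM, and GALNT13, which starts O-linked sugar chains, to 5.63 and 3.75 TPM from 21.2 and 19.0 TPM. Those falls and that of the chromatin gene BAZ2B (2.10 and 1.53 against 8.76 and 8.11 TPM) also held without any 1 library. GMDS, which makes GDP-fucose, fell to 8.49 and 6.67 TPM from 28.4 and 30.5 TPM, but without control replicate 2 its adjusted p was 0.0520.

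The remaining 3 of the 12 largest falls are less certain. AC018752.1, a lincRNA, was listed at 0 in both ASO3 libraries and at 3.24 and 6.39 TPM in the controls, and RN7SL738P, a copy of the signal recognition particle RNA, at 0 against 0.968 and 1.92 TPM. PVRIG2P, a pseudogene, stood at 0.794 and 0.101 TPM against 3.55 and 3.62 TPM. Reads of a multicopy RNA or a pseudogene can be shared with its relatives. Without ASO3 replicate 2, their adjusted p was 0.178, 0.102 and 0.0903 in that order. Without control replicate 2 it was 0.232, 0.136 and 0.123, and without control replicate 1 it was 0.111, 0.0458 and 0.105. Without ASO3 replicate 1, AC018752.1 (0.106) and RN7SL738P (0.0576) also lost the call.

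The largest rises were mostly of genes close to silent in the control libraries. GPX2, the selenium-dependent glutathione peroxidase of the gut lining, stood at 4.57 and 3.69 TPM with ASO3 and at 0.256 and 0.351 TPM with control (log2 difference 2.52, SE 0.29, adjusted p = 0.00366). OASL, an interferon-induced relative of the oligoadenylate synthases, stood at 2.75 and 2.83 against 0.0754 and 0.130 TPM (2.45, SE 0.28, adjusted p = 0.00375). NECTIN4, a cell adhesion molecule, stood at 6.31 and 5.71 against 0.785 and 0.743 TPM (2.36, SE 0.23, adjusted p = 0.00208). Both ASO3 libraries lay well above both control libraries in each gene, and these calls held without any 1 library. PGF, the placental growth factor that binds VEGF receptors, rose to 4.83 and 4.98 TPM from 0.621 and 0.523 TPM. RINL, a Ras and Rab interactor, rose to 8.22 and 8.76 TPM from 1.61 and 1.45 TPM, and GKN2, a gastric secreted protein, to 5.79 and 4.36 TPM from 0.344 and 0.860 TPM. The calls of PGF, RINL and GKN2 held without any 1 library as well. GKN2 also stood at 6.10 and 4.09 TPM with candidate 42 ASO5, on either side of its 2 values here.

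Of the other 6 largest rises, ISG15 is described with the interferon genes. FBXO2, the sugar-binding subunit of a ubiquitin ligase, stood at 2.70 and 2.87 TPM against 0.315 and 0.467 TPM, SPANXN4 at 5.10 and 5.40 against 0.821 and 0.632 TPM, and the mucin MUC12 at 3.15 and 2.27 against 0.336 and 0.408 TPM. The lincRNA AL391832.2 stood at 4.75 and 1.5 TPM against 0.152 and 0.363 TPM. MIR1180 was listed at 0 in both controls and at 2.29 and 5.02 TPM with ASO3, a value of the short host locus and not of the mature microRNA. None of these 5 calls held without control replicate 1 (adjusted p 0.0690 for FBXO2, 0.0717 for SPANXN4, 0.176 for MUC12, 0.155 for AL391832.2 and 0.109 for MIR1180) or without control replicate 2 (0.0603, 0.101, 0.192, 0.125 and 0.127). Without ASO3 replicate 2, FBXO2 (0.0810), SPANXN4 (0.102), MUC12 (0.156) and MIR1180 (0.168) were not called, nor without ASO3 replicate 1 were SPANXN4 (0.0547), MUC12 (0.142) and AL391832.2 (0.10). In the plot of the genes with the largest change, the ASO1 libraries are drawn beside them.

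**Figure D1:**
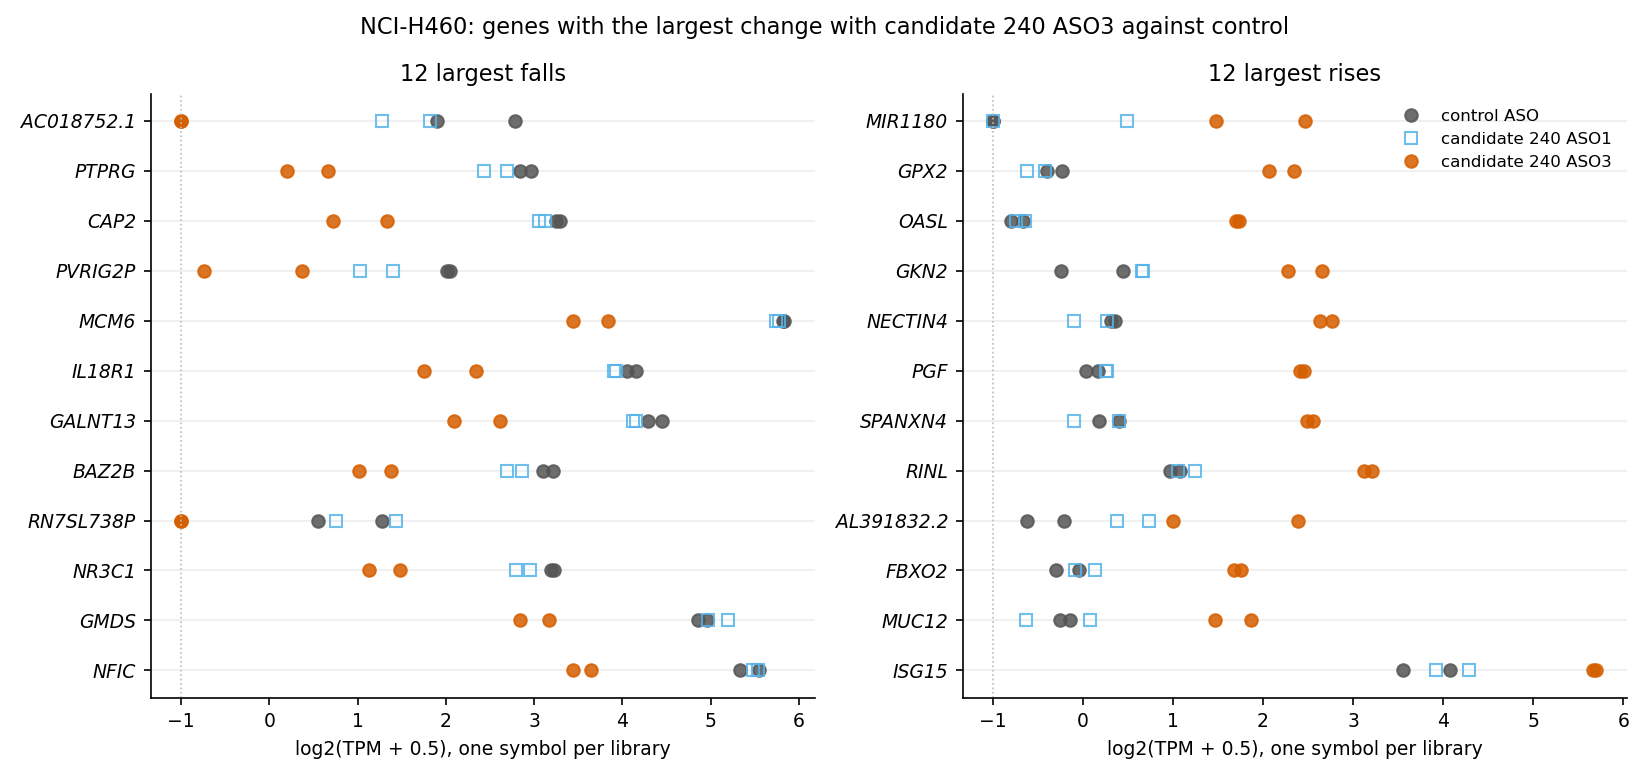
Level of the 12 genes with the largest fall (left) and the 12 with the largest rise (right) with candidate 240 ASO3 in NCI-H460, as log2(TPM + 0.5), with 1 symbol for each library (grey control ASO, orange candidate 240 ASO3, open blue squares candidate 240 ASO1) and a dotted line at 0 TPM. The 2 ASO3 libraries lie apart from the 2 control libraries in all 24 genes, as the choice of these genes required, and MCM6 is at 13.8 and 10.3 TPM against 55.8 and 56.5 TPM.

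Of 28 tested targets of p53, 9 rose and none fell, where 2.65% of all genes rose, with a median log2 difference of 0.29 against -0.03 over all genes. With libraries rescaled to the same total the median was 0.19. FDXR, the mitochondrial ferredoxin reductase, stood at 99.5 and 103 TPM with ASO3 and at 38 and 33.7 TPM with control (log2 difference 1.49, SE 0.09, adjusted p = 0.000493). PHLDA3, an inhibitor of AKT, stood at 87.0 and 99.5 against 45.4 and 42.7 TPM (1.07, SE 0.12, adjusted p = 0.00366). TP53I3, a quinone oxidoreductase, stood at 68.3 and 68.4 against 33.2 and 33.9 TPM (1.01, SE 0.11, adjusted p = 0.00282). In all 3 genes the lower ASO3 value was above the higher control value by more than the replicates differed. BTG2, an antiproliferative regulator of mRNA decay, rose to 14.4 and 15.5 TPM from 7.10 and 6.94 TPM (1.04, SE 0.14, adjusted p = 0.00545). CDKN1A, the p21 inhibitor of cyclin-dependent kinases, was picked out after its values were seen. It rose to 128 and 131 TPM from 67.7 and 65.4 TPM (0.96, SE 0.08, adjusted p = 0.00157). The other called members were BBC3, BAX, GADD45A and PLK3. MDM2, the ubiquitin ligase that p53 induces against itself, stood at 37.2 and 32.6 against 26.7 and 30.9 TPM (0.27, SE 0.14, adjusted p = 0.260), and the death receptor FAS at 9.13 and 10 against 8.68 and 8.22 TPM (adjusted p = 0.654). The count of raised p53 targets was 6 without ASO3 replicate 1, 4 without ASO3 replicate 2, 5 without control replicate 1 and 4 without control replicate 2. Without ASO3 replicate 2 or control replicate 2, BTG2 had an adjusted p of 0.0541 or 0.0616.

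Of 30 tested apoptosis regulators, 4 rose and none fell, where 2.65% of all genes rose. The median log2 difference was 0.06, but -0.03 with libraries rescaled to the same total and -0.02 without ASO3 replicate 1. BBC3 and BAX, which permeabilise or prime the mitochondrial membrane, belong to the p53 list too. BBC3 rose to 13.5 and 16.1 TPM from 7.23 and 7.59 TPM (0.95, SE 0.15, adjusted p = 0.0113). BAX rose to 230 and 251 TPM from 166 and 157 TPM (0.57, adjusted p = 0.0391). The initiator caspase gene CASP9 rose to 36.1 and 35.4 TPM from 23.3 and 23.2 TPM (0.61, adjusted p = 0.0111), and BID, a linker of death receptors to mitochondria, to 51.3 and 50.5 TPM from 38.6 and 36.9 TPM (0.43, adjusted p = 0.0431). None of the 4 calls held without ASO3 replicate 2 (adjusted p 0.0810 to 0.217), control replicate 1 (0.0911 to 0.160) or control replicate 2 (0.0848 to 0.256), and BBC3 alone held without ASO3 replicate 1.

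Of 33 tested interferon-stimulated genes, 8 rose and none fell, where 2.65% of all genes rose, with a median log2 difference of 0.17. With libraries rescaled to the same total the median was 0.07 and 6 rose. The 8 were OASL, ISG15, IRF9, IFI27, IFIT2, IRF7, IFIT3 and IFI6. Promoters of the called genes are shown because ISGF3 acts on such a sequence. The ISRE core was searched as TTTC, any 2 bases and TTTC, or on the other strand GAAA, any 2 bases and GAAA, from 250 bases before to 50 bases after the annotated start (RefSeq, GRCh38.p14). It was found in 996 of 27305 promoters (3.65%), in 273 of 9834 tested genes with a promoter entry (2.78%) and in 14 of 24 tested members of the interferon list (58.3%). Among called members it was found in 4 of 5 with an entry, and among members not called in 10 of 19 (52.6%). Matches stand in capitals, and overlapping matches run together.
ISG15 (chr1:1013247-1013546, plus strand): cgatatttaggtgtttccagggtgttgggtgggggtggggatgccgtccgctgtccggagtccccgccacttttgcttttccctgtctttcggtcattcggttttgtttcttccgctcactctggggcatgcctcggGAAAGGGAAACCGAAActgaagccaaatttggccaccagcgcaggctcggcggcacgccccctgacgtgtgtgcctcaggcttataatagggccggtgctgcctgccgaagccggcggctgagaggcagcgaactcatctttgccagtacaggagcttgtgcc
IFIT3 (chr10:89327747-89328046, plus strand): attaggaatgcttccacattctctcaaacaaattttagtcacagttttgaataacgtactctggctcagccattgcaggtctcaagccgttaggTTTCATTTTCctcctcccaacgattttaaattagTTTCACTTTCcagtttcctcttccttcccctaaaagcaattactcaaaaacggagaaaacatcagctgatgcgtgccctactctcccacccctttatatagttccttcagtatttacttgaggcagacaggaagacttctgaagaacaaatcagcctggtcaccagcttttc
IFI6 (chr1:27672143-27672442, minus strand): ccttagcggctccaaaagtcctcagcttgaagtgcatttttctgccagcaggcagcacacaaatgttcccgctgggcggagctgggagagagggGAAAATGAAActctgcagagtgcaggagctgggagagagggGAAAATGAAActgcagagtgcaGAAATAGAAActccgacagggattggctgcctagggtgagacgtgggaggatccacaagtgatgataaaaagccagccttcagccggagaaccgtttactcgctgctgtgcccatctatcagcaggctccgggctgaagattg
IFI27 (chr14:94110486-94110785, plus strand): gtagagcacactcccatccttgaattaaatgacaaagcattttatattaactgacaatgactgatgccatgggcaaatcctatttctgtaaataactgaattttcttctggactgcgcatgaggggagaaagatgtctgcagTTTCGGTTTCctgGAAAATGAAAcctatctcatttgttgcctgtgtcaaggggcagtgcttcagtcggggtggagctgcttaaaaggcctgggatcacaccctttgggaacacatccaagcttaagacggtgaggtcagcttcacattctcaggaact
IRF9 had no match in its 300 bases, and OASL, IFIT2 and IRF7 are named only.

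ISG15, a ubiquitin-like protein, stood at 50.1 and 51.5 TPM with ASO3 and at 16.4 and 11.2 TPM with control (log2 difference 1.87, SE 0.24, adjusted p = 0.00501). IRF9, the DNA-binding subunit of ISGF3, stood at 18.3 and 16.9 against 6.09 and 5.24 TPM (1.56, SE 0.16, adjusted p = 0.00227). IFI27, a small mitochondrial membrane protein, stood at 10.7 and 7.47 against 3.04 and 3.26 TPM (1.37, SE 0.28, adjusted p = 0.0262). All 3 were separated from control, with the 2 ASO3 values of IFI27 the farthest apart. Other members of the same pathway did not pass: MX1 stood at 2.27 and 2.06 TPM against 3.96 and 1.70 TPM, and the RNA sensor IFIH1 at 2.94 and 2.31 against 2.69 and 1.91 TPM. DDX58, which encodes the RNA sensor RIG-I, stood at 2.29 and 1.97 against 1.47 and 1.57 TPM (0.38, SE 0.21, adjusted p = 0.316). IFIT2 and IFIT3, members of an antiviral family, rose by 1.04 (adjusted p = 0.0351) and 0.86 (0.0256), the factor IRF7 by 0.99 (0.0172) and IFI6 by 0.78 (0.0169) on the log2 scale. The count of raised interferon genes was 3 without ASO3 replicate 1, 3 without ASO3 replicate 2, 3 without control replicate 1, 2 without control replicate 2, 4 with no filter on low values, 4 with a filter of 5 TPM and 5 on the groups compared only. OASL and IRF9 were called in each of the leave-one-out fits. ISG15 had an adjusted p of 0.0519 without control replicate 2, and IFI27 one of 0.111, 0.0844, 0.139 and 0.142 without ASO3 replicate 1, ASO3 replicate 2, control replicate 1 and control replicate 2. ISG15 also stood at 49.2 and 31.0 TPM with candidate 42 ASO3 and at 30.0 and 24.7 TPM with candidate 42 ASO5, above its control values, and OASL at 1.17 and 1.79 TPM with the latter.

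**Figure D2:**
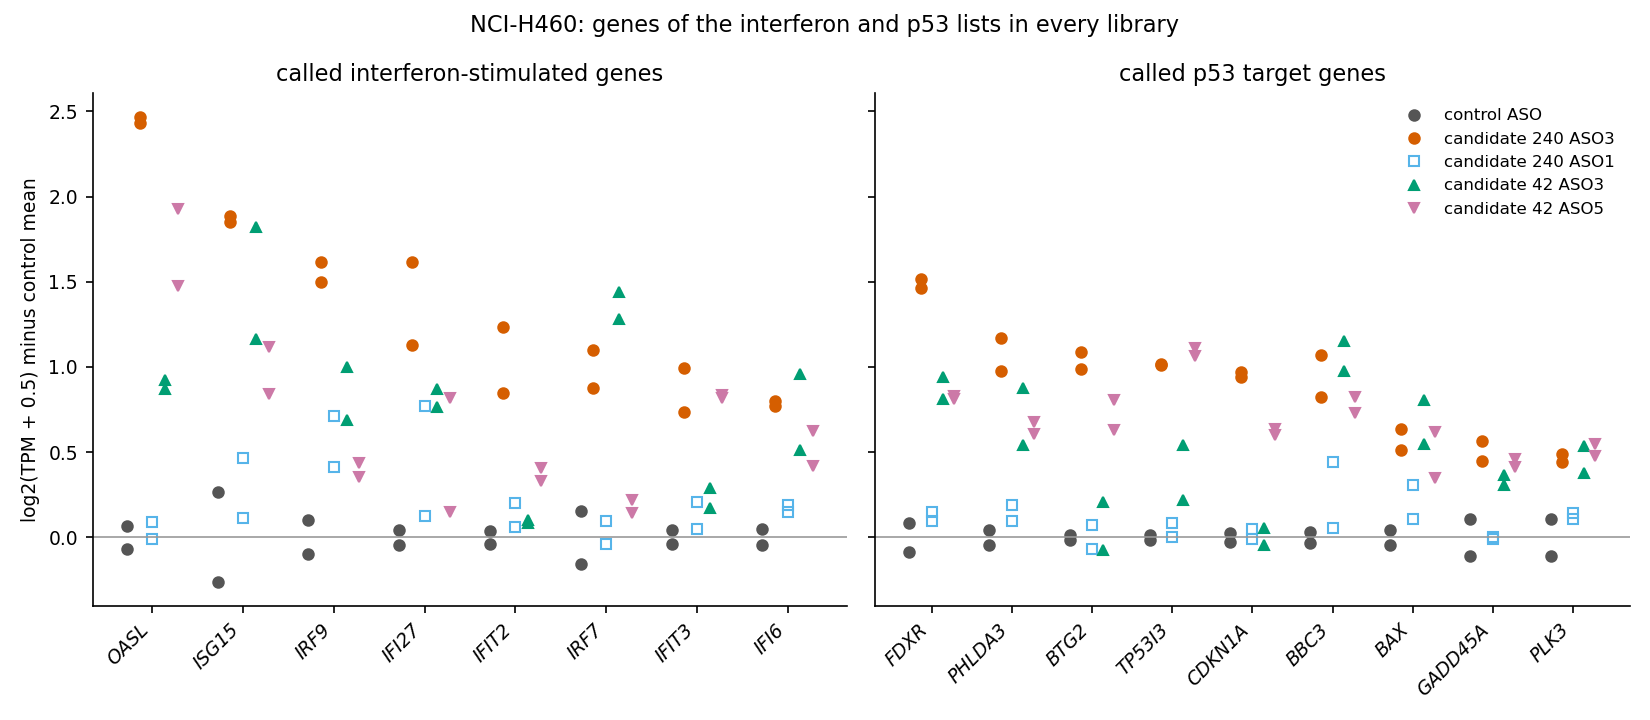
Called interferon-stimulated genes (left) and p53 targets (right) in every NCI-H460 library, as log2(TPM + 0.5) minus the mean of the 2 control libraries, with 1 symbol per library and groups told apart by colour and shape. OASL with candidate 240 ASO3 lies 2.45 above control on average, and the candidate 42 libraries of ISG15 and FDXR lie between the control and the candidate 240 ASO3 libraries.

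Replication and mitosis genes as groups did not follow MCM6. The 47 tested genes of the G1/S transition and DNA replication had a median log2 difference of -0.03. With libraries rescaled to the same total it was -0.13, where the median of all genes was -0.12. Of the 47 genes, 3 fell and none rose, where 3.01% of all genes fell. Besides MCM6 these were POLA1, the catalytic subunit of DNA polymerase alpha, and CDK6, a G1 cyclin-dependent kinase. POLA1 fell to 7.97 and 6.22 TPM from 15.8 and 16.9 TPM (-1.16, SE 0.15, adjusted p = 0.00547), and CDK6 to 4.57 and 3.88 TPM from 7.30 and 6.97 TPM (-0.70, SE 0.15, adjusted p = 0.0339). PCNA, the sliding clamp, stood at 255 and 226 TPM against 227 and 239 TPM, and CCND1, cyclin D1, at 58.0 and 53.5 against 57.4 and 52.6 TPM. Of 42 tested G2/M genes, none passed limma's test, with a median of -0.11, or -0.21 with libraries rescaled to the same total. At an unadjusted p under 0.05, 1 was higher and 9 were lower, where 1563 and 1723 of all 13774 genes were. MKI67, the proliferation marker, stood at 22.8 and 25.4 TPM against 30.1 and 32.4 TPM (-0.37, SE 0.14, adjusted p = 0.139). Of 34 DNA repair genes, only the exonuclease gene EXO1 passed, at 106 and 90.3 TPM against 137 and 142 TPM (-0.51, adjusted p = 0.0390). POLA1 had an adjusted p of 0.0622 without control replicate 2. CDK6 was called in no fit that left out 1 library (0.0630 to 0.201). EXO1 was not called without ASO3 replicate 2 (0.231), control replicate 1 (0.153) or control replicate 2 (0.234). Without ASO3 replicate 1, 2 G2/M genes fell.

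Of 23 genes of the endoplasmic reticulum unfolded protein response, 4 fell and none rose (median -0.20), where 3.01% of all genes fell. SEL1L, an adaptor of the HRD1 degradation complex, fell to 12.4 and 11.3 TPM from 26.0 and 23.0 TPM (-1.02, SE 0.19, adjusted p = 0.0205), and the stress sensor ATF6 to 15.5 and 12.9 TPM from 21.8 and 22.7 TPM (-0.64, SE 0.11, adjusted p = 0.0155). HSPA5, the main chaperone of that compartment, fell to 507 and 442 TPM from 642 and 623 TPM (-0.42, adjusted p = 0.0477), and HYOU1, its nucleotide exchange factor, to 106 and 102 TPM from 136 and 141 TPM (-0.41, adjusted p = 0.0262). Without ASO3 replicate 1, ATF6 alone of these 4 was called, and without any other 1 library none was (SEL1L 0.105 to 0.146, ATF6 0.0980 to 0.134, HSPA5 0.222 to 0.269, HYOU1 0.128 to 0.207). XBP1 stood at 107 and 112 TPM against 120 and 118 TPM. Of 28 genes of the ATF4 response, SLC7A11, the cystine transporter, fell to 30.6 and 25.9 TPM from 53 and 60.3 TPM (-0.99, SE 0.14, adjusted p = 0.00688). WARS1, tryptophanyl-tRNA synthetase, fell to 430 and 401 TPM from 687 and 631 TPM (-0.67, SE 0.10, adjusted p = 0.0104), and none of that list rose. ATF4 and DDIT3 did not pass, at 508 and 539 against 489 and 525 TPM and at 82.9 and 86.1 against 67.3 and 80.4 TPM. SLC7A11 was not called without ASO3 replicate 2 (0.0707) or control replicate 2 (0.0803), and WARS1 not without ASO3 replicate 2 (0.0982), control replicate 1 (0.101) or control replicate 2 (0.0713).

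Of 33 targets of NRF2, the factor of the oxidative stress response, GPX2 rose and SLC7A11, ABCC3 and ME1 fell, with a median of -0.08. ABCC3, an export pump, fell to 26.3 and 40.2 TPM from 59.2 and 57.1 TPM (-0.83, SE 0.17, adjusted p = 0.0259), and the malic enzyme gene ME1 to 67.0 and 60.2 TPM from 80.6 and 88.3 TPM (-0.41, adjusted p = 0.0482). NQO1, a quinone reductase often used as the readout of NRF2, stood at 3213 and 2638 TPM against 3517 and 3446 TPM (adjusted p = 0.289). Neither fall was called without control replicate 1 (ABCC3 0.141, ME1 0.139), control replicate 2 (0.143 and 0.293) or ASO3 replicate 1 (0.0525 and 0.0725), and ME1 not without ASO3 replicate 2 (0.255). The 20 heat shock genes had a median of 0.24, and 17 of them lay above 0. With libraries rescaled to the same total the median was 0.14. At an unadjusted p under 0.05 (limma), 9 were higher and 1 lower, where 1563 and 1723 of all 13774 genes were. HSPB1, a small chaperone, alone was called, and rose to 595 and 666 TPM from 360 and 334 TPM (0.86, SE 0.15, adjusted p = 0.0149). HSPA1A stood at 84.3 and 83.7 TPM against 64.7 and 58.9 TPM (adjusted p = 0.0864). Without ASO3 replicate 2, control replicate 1 or control replicate 2, HSPB1 had an adjusted p of 0.125, 0.0871 or 0.130.

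Of 21 tested genes of the TGF-beta response, 3 rose and 1 fell, where 2.65% of all genes rose and 3.01% fell. The median was 0.21, but 0.09 without ASO3 replicate 2 and 0.12 with libraries rescaled to the same total. PMEPA1, a feedback inhibitor of SMAD signalling, rose to 7.19 and 7.07 TPM from 2.37 and 3.46 TPM (1.18, SE 0.18, adjusted p = 0.00920). ID2, an inhibitor of basic helix-loop-helix factors, rose to 94.9 and 87.7 TPM from 49.6 and 43.9 TPM (0.96, SE 0.09, adjusted p = 0.00207), and its relative ID3 to 90.6 and 90.1 TPM from 66.8 and 63.8 TPM (0.47, adjusted p = 0.0483). CCN2, a matricellular protein that YAP and TEAD also control, fell to 108 and 85.3 TPM from 161 and 136 TPM (-0.63, adjusted p = 0.0401). The ID2 call held without any 1 library. PMEPA1 was not called without ASO3 replicate 2 (0.0743) or control replicate 1 (0.0679), and ID3 in no fit without 1 library (0.128 to 0.266). CCN2 was not called without ASO3 replicate 2 (0.236), control replicate 1 (0.216) or control replicate 2 (0.120). With libraries rescaled to the same total, ID3 was not called (0.0808).

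YAP and TEAD, effectors of the Hippo pathway, had 6 of 23 tested targets or partners lowered and 1, GADD45A, raised (median -0.21). Over all genes, 3.01% fell and 2.65% rose. TEAD1, the DNA-binding partner of YAP, fell to 11.5 and 10 TPM from 20.9 and 21.3 TPM (-0.94, SE 0.19, adjusted p = 0.0262). DLC1, a GTPase-activating protein, fell to 2.24 and 1.88 TPM from 4.61 and 4.86 TPM (-1.04, SE 0.25, adjusted p = 0.0483), and IGFBP3, which binds insulin-like growth factors, to 193 and 181 TPM from 320 and 333 TPM (-0.80, SE 0.16, adjusted p = 0.0242). CCN2, CCN1 and PTPN14 were the other 3. YAP1 stood at 21 and 18.4 TPM against 27.9 and 25.2 TPM (-0.42, SE 0.19, adjusted p = 0.214). This count rests on every library, since 1 gene of the list fell without ASO3 replicate 1 and 0 did without ASO3 replicate 2, control replicate 1 or control replicate 2, or with no filter. In candidate 42 ASO3 libraries TEAD1 stood at 0.840 and 1.5 TPM, far under its ASO3 level here.

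Genes of matrix and integrins moved in both directions, with 2 of 27 tested raised and 4 lowered (median -0.10). The shares over all genes were 2.65% raised and 3.01% lowered. LAMB3, a laminin beta chain of epithelial basement membranes, rose to 26.2 and 23.3 TPM from 10.6 and 8.49 TPM (1.33, SE 0.16, adjusted p = 0.00446). ITGB5, the beta chain of a vitronectin receptor, fell to 97.5 and 82.8 TPM from 234 and 217 TPM (-1.32, SE 0.11, adjusted p = 0.00142). The laminin chains LAMB1 (86.4 and 80.1 against 146 and 148 TPM, -0.82, adjusted p = 0.00258) and LAMA1 (46.6 and 57.2 against 90.6 and 90.7 TPM, -0.81, adjusted p = 0.00633) fell. The list's other calls were a fall of LAMC1, not called without ASO3 replicate 2 or either control replicate, and a rise of LAMB2, called in no fit without 1 library. ITGB5 and LAMB1 kept their calls without any 1 library. LAMA1 was not called without control replicate 1 (0.0566) or 2 (0.0660), nor LAMB3 without control replicate 2 (0.0517), when 2 genes of the list fell and none rose. Of 17 genes of epithelial and mesenchymal state, only the repressor ZEB2 passed, at 11.2 and 9.99 TPM against 15 and 16.3 TPM (-0.54, adjusted p = 0.0423), and without any 1 library it did not (0.0754 to 0.263).

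Among 31 tested genes of RAS and ERBB signalling, RALA, a RAS-like GTPase, fell to 11 and 7.28 TPM from 23.2 and 25.9 TPM (-1.41, SE 0.17, adjusted p = 0.00375). It stood at 21.4 to 25.5 TPM in all 6 libraries with other ASOs against candidates 240 and 42, and its call held without any 1 library. EGFR, the epidermal growth factor receptor, fell to 6.22 and 5.17 TPM from 11.2 and 11.5 TPM (-0.94, SE 0.19, adjusted p = 0.0256). AREG, 1 of its ligands, rose to 3.88 and 3.60 TPM from 1.59 and 1.39 TPM (1.09, SE 0.21, adjusted p = 0.0212). Neither was called in any fit without 1 library (EGFR 0.0561 to 0.174, AREG 0.0837 to 0.153). The receptor gene ERBB2 stood at 22.5 and 19.1 TPM against 18.5 and 16.0 TPM.

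The 14 tested genes of the glucocorticoid response, NR3C1 itself among them, had a median of 0.09. The median was -0.05 without ASO3 replicate 1 and -0.00 with libraries rescaled to the same total. NR3C1 was the only member called lower. The clock gene PER1 alone was called higher, at 10.4 and 13.6 TPM against 6.89 and 5.11 TPM (0.95, adjusted p = 0.0433). FKBP5 stood at 14.6 and 13.2 TPM against 15.3 and 16.5 TPM, and TSC22D3 at 32.8 and 29.7 against 29.3 and 29.3 TPM. Of 33 immediate early genes, 3 rose: NR4A2 (13.1 and 13.0 against 7.48 and 7.09 TPM, adjusted p = 0.0445), JUND (128 and 129 against 91.2 and 72.8 TPM, 0.0296) and IER5 (26.2 and 27.4 against 20.2 and 17.0 TPM, 0.0422). Among 20 genes of NF-kB and chemokines, IL1A alone rose, to 5.68 and 5.72 TPM from 3.02 and 2.82 TPM (0.86, adjusted p = 0.0173). PER1, NR4A2, JUND, IER5 and IL1A were called in no fit that left out 1 of the 4 libraries (0.0589 to 0.275).

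In metabolism and protein production few genes passed. MVD, a decarboxylase of the mevalonate pathway, rose to 33.5 and 38.5 TPM from 22.7 and 19.9 TPM (0.74, SE 0.12, adjusted p = 0.0107), alone of 32 genes of sterol and fatty acid synthesis. PDK1, which restrains pyruvate dehydrogenase, fell to 14.9 and 12.2 TPM from 27.4 and 28.2 TPM (-1.02, SE 0.14, adjusted p = 0.00568), alone of 32 genes of glycolysis and hypoxia. Without ASO3 replicate 2 or control replicate 2, neither passed (MVD 0.0951 and 0.107, PDK1 0.0514 and 0.0634). In the lysosome and autophagy list, ATG7 (7.84 and 6.14 against 12.1 and 13.9 TPM) and LAMP2 (33 and 25.2 against 42.8 and 43.5 TPM) fell, 2 of 34. ATG7 passed in no fit without 1 library (0.0578 to 0.235), and LAMP2 only without ASO3 replicate 1. No gene of ribosome biogenesis (31 tested), the proteasome (31), nuclear oxidative phosphorylation (43), mitochondrial ribosomal proteins (40) or the mitochondrial genome (13) passed (limma). At an unadjusted p under 0.05, 2, 5, 1, 1 and 2 were higher and 4, 0, 2, 3 and 0 lower, in that order. Over all 13774 genes, 1563 were higher and 1723 lower at that level. Of 52 cytosolic ribosomal protein genes none passed (1 higher at an unadjusted p under 0.05), although all 52 lay above 0 with a median of 0.17. Rescaled to the same total, 41 of the 52 lay above 0 and the median was 0.07. The 13 genes of the mitochondrial genome also all lay above 0, with a median of 0.22. After the same rescaling 11 of the 13 did, and their median was 0.12.

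The machinery that ASOs depend on and other nuclear RNAs were also examined. RNASEH1, the nuclease recruited by ASOs, stood at 23.1 and 23.1 TPM against 26.6 and 27.6 TPM (-0.23, SE 0.11, adjusted p = 0.257). Of 24 genes of RNase H and nuclear RNA decay, MTREX, the exosome helicase, fell to 30.9 and 25.5 TPM from 41.6 and 44.1 TPM (-0.60, adjusted p = 0.0335), and EXOSC8, an exosome subunit, to 45 and 45.5 TPM from 68.9 and 66.7 TPM (-0.58, adjusted p = 0.0214). EXOSC8 passed in no fit without 1 library (0.0771 to 0.134), and MTREX only without ASO3 replicate 1. The nuclear long noncoding RNA NEAT1 stood at 27.9 and 73.3 TPM against 51.9 and 85.7 TPM, with overlapping groups (adjusted p = 0.567). MALAT1, another, stood at 6.52 and 10.4 against 11.1 and 13.1 TPM and did not pass (adjusted p = 0.577).

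**Figure D3:**
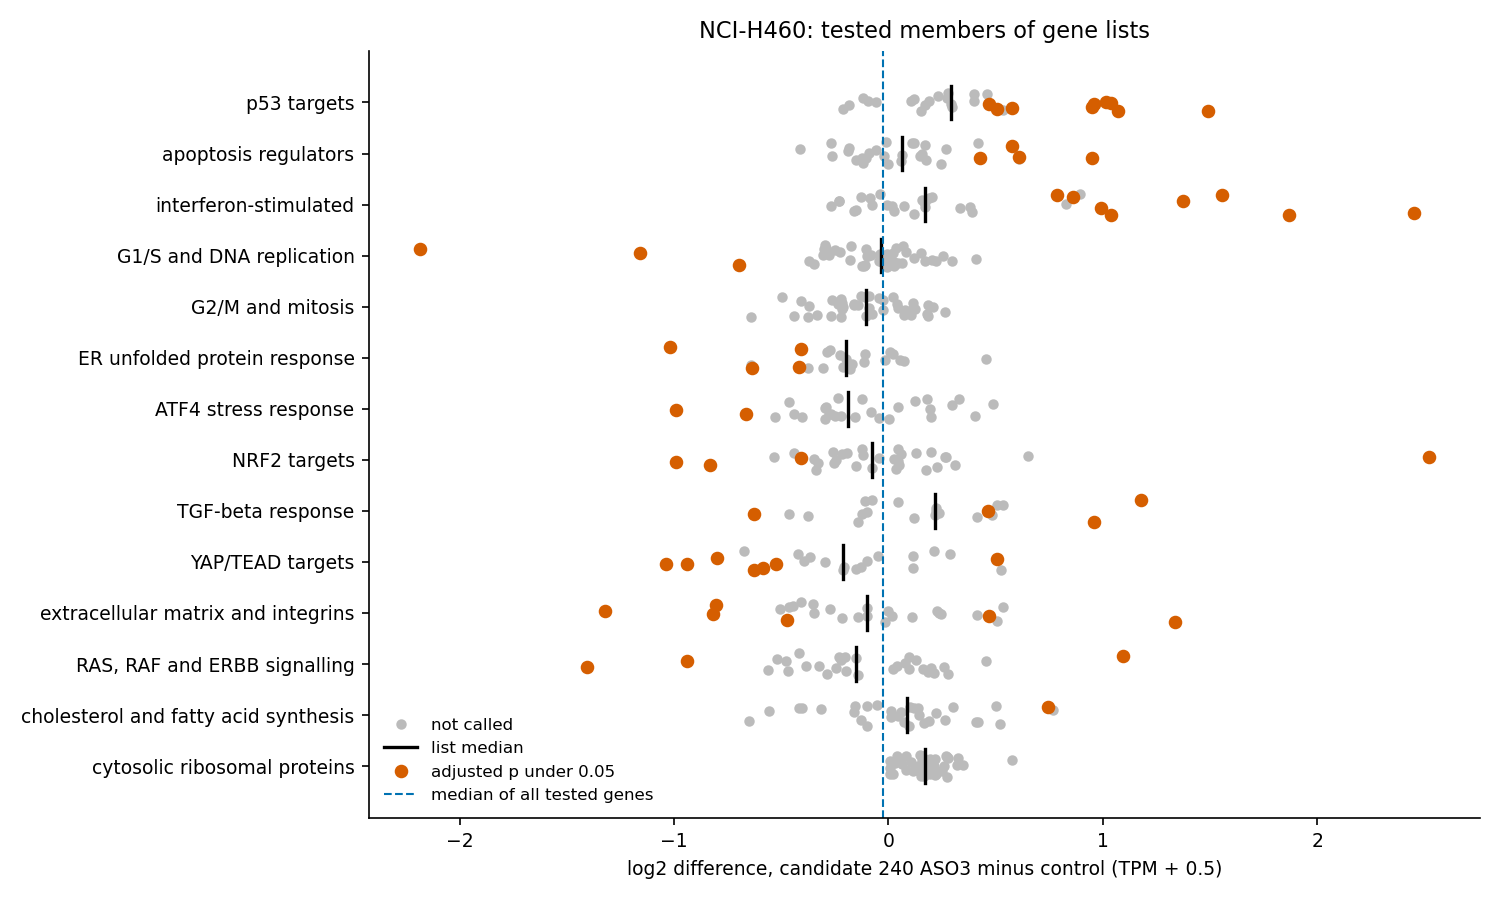
Log2 difference between candidate 240 ASO3 and control of every tested member of 14 gene lists in NCI-H460, with 1 point per gene (orange for an adjusted p under 0.05), a black bar at the list's median and a dashed line at the median of all tested genes, -0.03. The called p53 targets and interferon-stimulated genes lie to the right of 0, MCM6 stands alone at -2.19 in its list, and the 52 ribosomal protein genes lie in a narrow band above 0.

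Markers of other cell types were looked at beside these results, although an established line should hold 1 cell type. Leukocyte markers summed to 60.3 and 62.0 TPM with ASO3 and 33.6 and 45.8 TPM with control, almost all of it CD68 and CD14, and the defining markers PTPRC, CD3E and MS4A1 were listed at 0 in all 4 libraries. CD68, a lysosomal glycoprotein, rose to 40.5 and 44.0 TPM from 19.1 and 24.7 TPM (0.94, adjusted p = 0.0152), though in no fit without 1 library (0.0508 to 0.121). Fibroblast markers summed to 42.5 and 47.4 against 28.2 and 26.2 TPM, with PDGFRA and FAP at 0. ACTA2, smooth muscle actin, rose to 28.6 and 34.1 TPM from 16.3 and 15 TPM (0.98, adjusted p = 0.00446), but had an adjusted p of 0.0582 without control replicate 2. Neuroendocrine markers summed to 1315 and 1407 against 1271 and 1308 TPM, nearly all UCHL1, and NCAM1 fell to 1.77 and 1.5 TPM from 4.41 and 3.13 TPM (-0.99, adjusted p = 0.0483), in no fit without 1 library (0.102 to 0.256). No endothelial or squamous marker passed the filter of 1 TPM, and their sums reached at most 1.24 and 1.66 TPM.

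Raised and lowered genes differed in gene body length, the distance from first to last base on hg38 in the authors' table. The median was 12005 bases for the 363 raised genes with a position, 148998 for the 412 lowered ones and 28549 for all 13530. In 5 bins of 2706 genes each, the percentage that fell went from 0.407% in the shortest (up to 7690 bases) through 1.03%, 1.33% and 2.77% to 9.68% in the longest (from 87575 bases). The percentage that rose was 4.36%, 4.92%, 2.25%, 1.22% and 0.665% in the same order, and the median log2 difference of the bins went from 0.14 to -0.23. Rescaled to the same total, the medians were 11276 bases for raised and 124054 for lowered genes, and the shift of the bins ran from 0.05 to -0.32. Of the 10 largest falls with a position, the median body was 160934 bases. PTPRG was the longest at 736041, GMDS stood at 621800 and MCM6 at 36818, and the shortest body was 1333 bases. What lies behind the relation to length was not tested.

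**Figure D4:**
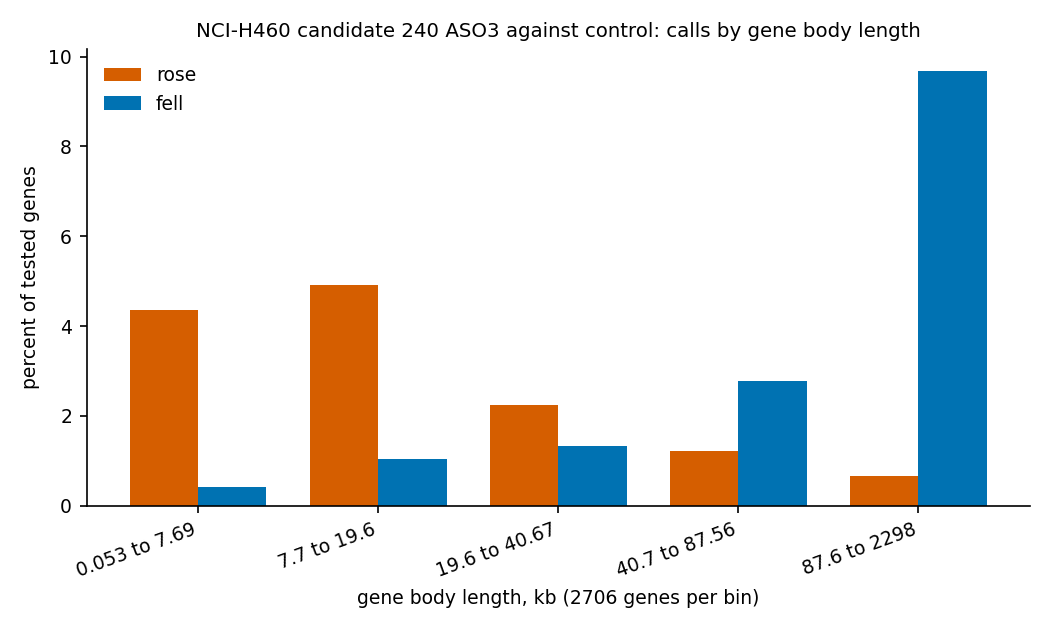
Percentage of tested genes that rose (orange) or fell (blue) with candidate 240 ASO3 in NCI-H460, in 5 bins of gene body length with 2706 genes each and the bins' limits in kb on the horizontal axis. The blue bars climb from 0.407% in the shortest to 9.68% in the longest genes, and the orange bars drop from 4.36% to 0.665%.

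The other ASO against candidate 240 gave a direct comparison that needs no control library. ASO3 differed from ASO1 in 402 of 13774 genes (2.92%), 143 higher (1.04%) and 259 lower (1.88%). This comparison and the one with control share the ASO3 libraries, so their lists are not independent. The largest falls among called genes were those of AL021997.1 (a processed pseudogene listed at 0 in both ASO3 libraries and at 2.94 and 2.74 TPM with ASO1), RN7SL693P, MCM6, PTPRG and RN7SL738P. MCM6 was lower by -2.12 (SE 0.13, adjusted p = 0.000668) and PTPRG by -2.12 (adjusted p = 0.00446) on the log2 scale. The largest rises were those of GPX2 (2.73, adjusted p = 0.00322), NECTIN4 (2.62, 0.00204), OASL (2.41, 0.00446), SPANXN4 (2.37, 0.0124) and HKDC1, a hexokinase relative, at 4.19 and 4.46 TPM with ASO3 against 0.719 and 0.396 TPM with ASO1 (2.21, 0.00417). In the interferon list 4 of 33 genes were higher with ASO3 than with ASO1, in the p53 list 7 of 28 and none lower, and in the unfolded protein list 3 of 23 were lower. RN7SL693P was listed at 0 in both controls and stood at 3.48 and 3.55 TPM with ASO1, so the ASO1 libraries stood apart for it and the ASO3 libraries did not. The count was 181 without ASO3 replicate 1, 65 without ASO3 replicate 2, 53 without ASO1 replicate 1 and 52 without ASO1 replicate 2. AL021997.1 and SPANXN4 passed in none of these fits (0.167 to 0.259 and 0.0646 to 0.108), nor did RN7SL738P (0.0528 to 0.124). PTPRG (0.0552) and RN7SL693P (0.0671) were lost without ASO1 replicate 2, RN7SL693P also without ASO1 replicate 1 (0.0651), and OASL (0.0550) and HKDC1 (0.0529) without ASO3 replicate 2.

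Against the mean of the 2 ASOs for candidate 42, another RNA, ASO3 differed in 493 genes (3.58%), 357 higher (2.59%) and 136 lower (0.987%). The higher share of these calls, 72.4%, was 52.8% with median-of-ratios scaling (189 higher and 169 lower), which moved the median of all genes from 0.08 to -0.01, and 58.4% with libraries rescaled to the same total (142 and 101). Fitted on the groups compared only, 57 were higher and 42 lower. MCM6 was again among the largest falls, at -2.03 (SE 0.11, adjusted p = 0.000363), and GPX2 among the largest rises, at 2.32 (adjusted p = 0.00333). Both compared levels named above, and all 4 candidate 42 libraries held GPX2 at 0.310 to 0.549 TPM. The other 4 extreme falls were of SNORA11, RN7SL738P, AL139317.3 and AC011472.3, short or antisense RNAs, of which SNORA11, AL139317.3 and AC011472.3 were at or under 0.247 TPM in both ASO3 and both control libraries. Their high values lay in the candidate 42 libraries. The other 4 extreme rises were of AC107959.3 (5.34 and 6.54 TPM with ASO3 against 1.16 and 2.33 TPM with control), RNU6-882P, SMIM11B and AC005326.1. AC107959.3 is the RNA taken for candidate 42, and its reads cannot be told apart from the opposite strand because the sources used here do not tell how strand was handled. SMIM11B stood at 0.569 and 8.63 TPM in the 2 controls, and the higher of these lay between its ASO3 values of 10.5 and 6.75 TPM. The count was 62 without ASO3 replicate 1 and 73 without ASO3 replicate 2. It was 165 without candidate 42 ASO5 replicate 1, 216 without candidate 42 ASO5 replicate 2 and 2447 without candidate 42 ASO3 replicate 2. Without ASO3 replicate 1, GPX2 (0.0577), AC107959.3 (0.0752), RNU6-882P (0.0588), RN7SL738P (0.105), AL139317.3 (0.261), AC011472.3 (0.139), SMIM11B (0.281) and AC005326.1 (0.225) were not called, nor, GPX2 apart, were they without ASO3 replicate 2 (0.0799 to 0.181). AL139317.3, AC011472.3, SMIM11B and AC005326.1 were also lost without candidate 42 ASO3 replicate 1 (0.0592 to 0.0710) or candidate 42 ASO5 replicate 1 (0.0615 to 0.131), and the first 3 without candidate 42 ASO5 replicate 2 (0.0552 to 0.0877).

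The same ASO in A549, where neither its libraries nor the controls are shared, gave 2036 calls of 14740 genes (13.8%), 884 higher (6.0%) and 1152 lower (7.82%). With the replicate number as a block, 3696 passed (1636 higher and 2060 lower), and fitted on the groups compared only, 652 did (267 and 385). Among 12760 genes tested in both lines, 373 fell in NCI-H460 and 1022 in A549, and 234 fell in both, which is 62.7% of the first list and 22.9% of the second. Of the raised genes, 336 in NCI-H460 and 680 in A549, 133 rose in both, or 39.6% and 19.6%. The NCI-H460 falls had a median log2 difference of -0.89 in A549, and 360 of 373 were below 0 there, while 308 of the 336 rises were above 0. With the block, 261 genes fell in both and 190 rose in both, and fitted on the groups compared only, 126 and 59. MCM6 stood at 5.81, 4.39 and 4.78 TPM with ASO3 in A549 and at 45.9, 52.8 and 43.0 TPM with control (-3.12, SE 0.11, adjusted p = 2.61e-09). CAP2 (-2.78), NR3C1 (-3.18), NFIC (-2.97), BAZ2B (-2.98), RALA (-2.43) and PTPRG (-2.46) fell there as well, and OASL (2.05), RINL (2.13), ISG15 (2.0) and LAMB3 (1.86) rose. In A549, 10 of 29 tested p53 targets and 11 of 30 tested interferon-stimulated genes rose and none fell. The G1/S list had 16 of 47 genes lowered in A549 and the G2/M list 13 of 42, against 3 and 0 in NCI-H460. With the block the A549 counts of these 4 lists were, in that order, 15 and 14 raised and 27 and 27 lowered, and on the groups compared only 3, 7, 3 and 1. Without A549 control replicate 4, 1366 genes passed in A549. Without A549 control replicate 4, 194 genes fell and 96 rose in both, and without A549 control replicate 3, 263 and 162. With 1 NCI-H460 library left out, the shared falls were 154 (ASO3 replicate 1), 56 (ASO3 replicate 2), 48 (control replicate 1) and 36 (control replicate 2), and the shared rises 67, 21, 35 and 13.

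**Figure D5:**
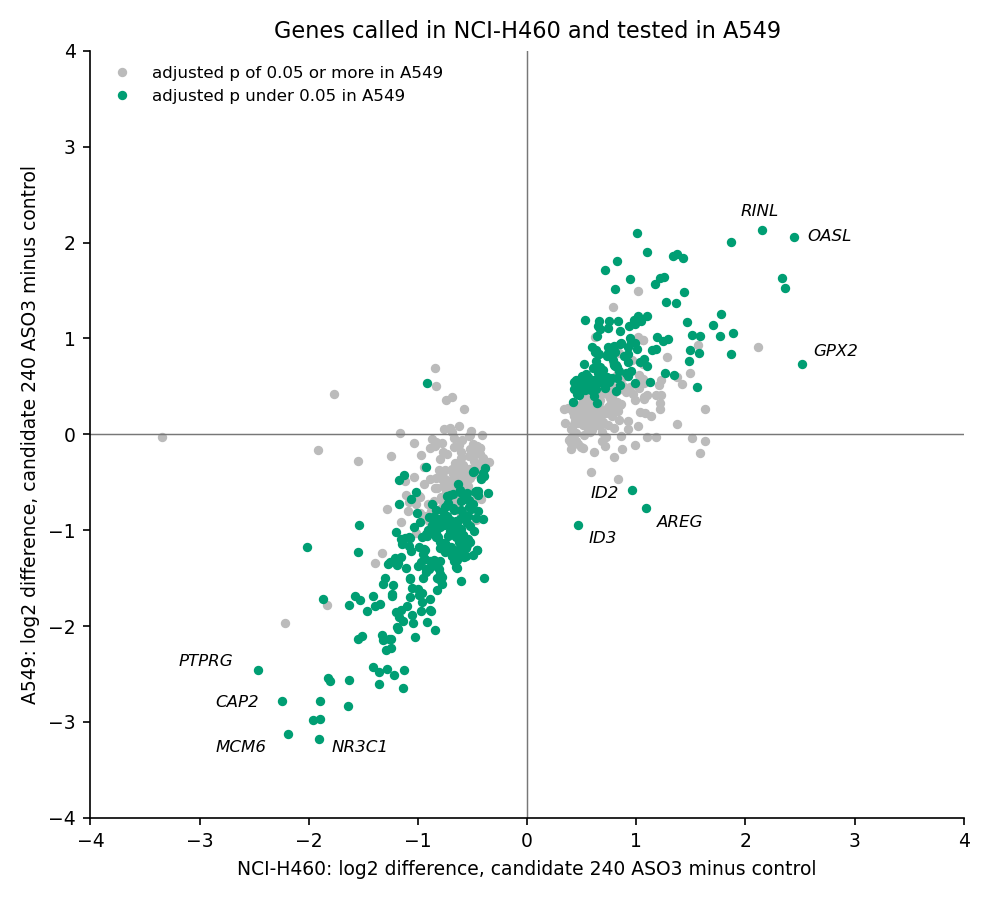
The 709 genes called with candidate 240 ASO3 in NCI-H460 and tested in A549, with the log2 difference against control in NCI-H460 on the horizontal and in A549 on the vertical axis (green for an adjusted p under 0.05 in A549). MCM6, at -2.19 and -3.12, lies at the lower left among genes lowered in both lines, and AREG, ID2 and ID3 lie at the lower right, raised in NCI-H460 and lowered in A549.

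The difference between the lines' responses was tested itself, over all 25 libraries, and 179 of 14769 genes (1.21%) passed, 121 with the NCI-H460 response higher (0.819%) and 58 lower (0.393%). With libraries rescaled to the same total, 85 were higher and 73 lower, so the higher share moved from 67.6% to 53.8% as the median of all genes moved from 0.01 to -0.07. With the replicate block 535 passed, 370 higher and 165 lower. Among them NR3C1 (1.27, adjusted p = 0.0120) and RALA (1.02, 0.0430) fell less in NCI-H460, with an adjusted p of 0.243 and 0.0735 without the block. In the main fits, the genes that passed in opposite directions in the 2 lines were AREG, ID2 and ID3, raised in NCI-H460, and ATP9B. ATP9B, a phospholipid flippase lowered in NCI-H460 (-0.91) and raised in A549 (0.53), was picked out after its values were seen. With the block, 5 raised and 4 lowered NCI-H460 genes passed oppositely in A549, but none on the groups compared only or with no filter. The NCI-H460 calls of AREG and ID3 rest on every library, as given above. ID2 fell in A549 to 31.1, 24.0 and 26.1 TPM from 46.5, 37.8 and 37.9 TPM (-0.58, adjusted p = 0.0458), so the responses differed by 1.54 (SE 0.24, adjusted p = 0.00282). ID3 differed by 1.41 (adjusted p = 0.00496) and AREG by 1.86 (adjusted p = 5.91e-05). MCM6 fell less in NCI-H460 than in A549, by 0.93 (SE 0.17, adjusted p = 0.00980), and ITGB5 by 0.82 (adjusted p = 0.0309). IRF9 rose more in NCI-H460, by 1.06 (adjusted p = 0.0129), while OASL and ISG15 differed by 0.39 (adjusted p = 0.707) and -0.14 (adjusted p = 0.958), which did not pass. GPX2 differed by 1.79 (adjusted p = 7.56e-05) at levels far apart, since A549 control libraries held 811 to 1047 TPM of it. Fitted on the 4 groups compared only, 1 gene passed. With 1 NCI-H460 library left out the count was 64 (ASO3 replicate 1), 74 (ASO3 replicate 2), 52 (control replicate 1) and 47 (control replicate 2). Without A549 ASO3 replicate 3 it was 273, without A549 ASO3 replicate 4 it was 104, without A549 ASO3 replicate 5 it was 106, and without A549 control replicate 4 it was 113.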

How the data were processed

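RNA-seq libraries of NCI-H460 and A549 cells, 24 h after transfection with an ASO at 25 nM, were grouped by the labels. Per the submitters' processing notes, kallisto and sleuth 0.30 were used with hg38. Neither an annotation release nor a strand setting is given in the sources used here. The authors deposited a signal per gene name, TPM that had been rescaled between libraries, and a table of log2 fold changes and q-values for each ASO against control, per the file headers. From the deposited signal, limma 3.58.1 (R 4.3.3) was fitted on log2(TPM + 0.5) over the 10 NCI-H460 libraries, keeping genes whose NCI-H460 mean reached 1 TPM, with a trended prior, 2-sided, adjusted by Benjamini-Hochberg and called at an adjusted p under 0.05. The difference between lines was fitted over all 25 libraries. The pseudocount lessens the folds of low genes.

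The 12 called genes with the largest change in each direction whose groups did not overlap are named, then up to 4 called members and 2 hub genes of each of 40 lists, the neighbourhood of AC015712.6, and 5 genes per direction of each other comparison. The members and lists were chosen with earlier results of these data known. The A549 overlap and gene body length were added after seeing the data, and 5 names spanning over 3 Mb were left out of the latter. Labels give no meaning to replicate numbers. In A549 the deviations of same-numbered ASO3 and control libraries correlated in all 3 pairs (0.564, 0.283 and 0.304). Control replicate 4 with ASO3 replicate 5 (0.277) and control replicate 5 with ASO3 replicate 4 (0.263) correlated about as much. Only replicate 3 thus stood apart, and these values do not settle how replicates 4 and 5 pair. The A549 block took same-numbered libraries as paired, which the labels do not state. The 2 NCI-H460 pairs share only a number. Alternatives were the pseudocount, filter, scaling, samples fitted, prior, block, and leaving out each library. Promoters come from RefSeq. The ASO sequences were not used here. Some genes of the lists are not reported here.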

Additional observations from a re-analysis of the deposited data

Results flagged for a closer look

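Each gene here responded differently to candidate 240 ASO3 in NCI-H460 and in A549 by the test of that difference (limma, 25 libraries, 2-sided, adjusted by Benjamini-Hochberg). Values are the NCI-H460 response minus the A549 response on the log2 scale. No explanation was tested. When fitted on the 4 groups compared alone, 1 gene of all tested passed.

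Genes that rose in NCI-H460 and not in A549 were AREG (1.86, adjusted p = 5.91e-05), ID2 (1.54, 0.00282), ID3 (1.41, 0.00496) and HKDC1 (1.70, 0.00102). The calls of AREG and ID3 against control in NCI-H460 rest on every library, as given above. HKDC1 stood at 4.19 and 4.46 TPM against 1.24 and 0.893 TPM in NCI-H460 and at 33.4 to 38.9 against 29.2 to 46.8 TPM in A549. GKN2 differed by 2.31 (0.0255), but A549 held at most 0.256 TPM of it, and its adjusted p was 0.131 without NCI-H460 ASO3 replicate 1, 0.0623 without NCI-H460 ASO3 replicate 2 and 0.168 without NCI-H460 control replicate 1, and 0.0555 to 0.0594 without A549 ASO3 replicate 4, A549 ASO3 replicate 5 or A549 control replicate 3. Both lines raised GPX2 and IRF9, which differed by 1.79 (7.56e-05) and 1.06 (0.0129).

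Both lines lowered MCM6 and ITGB5, which fell less in NCI-H460 by 0.93 (0.0098) and 0.82 (0.0309). LAMA1 differed by -0.78 (0.0455) and was under 0.15 TPM in A549. EXOSC8, an exosome subunit, differed by -0.84 (0.0228), with 45 and 45.5 against 68.9 and 66.7 TPM in NCI-H460 and 36.7 to 43 against 31.2 to 36.7 TPM in A549.

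The remaining genes were extremes of the test, and most were low or silent in 1 line. LGALS4 (-2.84, 0.00107), MILR1 (-2.57, 0.00677), LGALS7 (-2.60, 0.0258) and the lincRNA AL162582.1 (-2.65, 0.0184) were higher with ASO3 in A549, where LGALS4 stood at 8.13 to 14.8 against 1.77 to 2.11 TPM. LGALS7 was listed at 0 in all 4 NCI-H460 libraries and was not called without any 1 of them (0.0980 to 0.114) or without A549 control replicate 4 (0.0594). MILR1 was not called without NCI-H460 ASO3 replicate 1 (0.0575) or control replicate 2 (0.0596). AL162582.1 was not called without NCI-H460 ASO3 replicate 1 (0.0977), ASO3 replicate 2 (0.0531), control replicate 1 (0.102) or control replicate 2 (0.0666). RBFOX3 (3.05, 0.00111) and SLC35F3 (2.22, 4.92e-05) fell in A549, RBFOX3 from 18.5 to 33.9 TPM to 1.8 to 3.54 TPM. SLC35F3 stood at 1.13 and 1.19 against 1.15 and 1.08 TPM in NCI-H460. The antisense RNA AC109466.1 (-2.20, 0.00183) stood at 2.94 and 2.27 against 8.83 and 10.9 TPM in NCI-H460 and under 0.5 TPM in A549. H2BC17 (3.1, 0.0255) and AC009878.1 (2.24, 0.0451) rest on few libraries, since without NCI-H460 ASO3 replicate 1 their adjusted p was 0.0970 and 0.0944, without NCI-H460 ASO3 replicate 2 it was 0.107 and 0.223, and without NCI-H460 control replicate 2 it was 0.195 and 0.178. Without NCI-H460 control replicate 1, AC009878.1 had 0.164. Both were also lost without A549 ASO3 replicate 4 (0.0644 and 0.10) or A549 control replicate 4 (0.0506 and 0.109), H2BC17 without A549 control replicate 5 (0.0519), and AC009878.1 without A549 ASO3 replicate 5 (0.0856) or A549 control replicate 3 (0.0740).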

How the results depend on the processing

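All 780 genes called against control kept their direction under every alternative in which they were tested. With 1 library left out this was fixed in advance, since the groups overlapped in none of these genes. The number called did not hold. With no filter it was 373, and it ranged from 74 to 399 with 1 library left out, where the lone library of a group is assumed to vary like the other groups. Against ASO1 the count of 402 became 193 on the groups compared only, 215 with no filter, and 52 to 181 with 1 library left out. Against candidate 42 the count of 493 became 99 on the groups compared only, 243 with libraries rescaled to the same total, 243 with no filter, and 62 to 2447 with 1 library left out. The 179 genes that differed between lines became 109 with a filter of 5 TPM, 1 on the groups compared only, 291 with no filter, and 47 to 273 with 1 library left out. The replicate block gave 721 calls against control and 535 for the difference between lines. In NCI-H460 the deviations of same-numbered libraries had correlations of -0.0256 to 0.195 over the 10 pairs of groups (-0.0156 for control and ASO3). In A549 the block gave 3696 calls in place of 2036. ALDH1A3, at 0.34, ranged from -0.06 to 0.74, and ASB7, at -0.13, from -0.39 to 0.13 (0.06 without control replicate 1), neither called. The cause of these shifts was not tested. Read depth is unknown, so what it limits could not be stated.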
